A study of Mus musculus with 16 samples.

Results

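The livers compared here came from mice labelled LERKO, a liver-specific knockout of oestrogen receptor alpha made by Cre acting on a floxed Esr1 gene. The 4 libraries of the group Mat.LERKO (stage label mature) were set against the 4 of the group Imm.LERKO (stage label immature), 8 of the 16 libraries of the series, chosen by their group labels and each from 1 mouse. The other 8 libraries are floxed mice without Cre, 4 of Mat.Con (mature) and 4 of Imm.Con (immature). They share the estimate of spread and serve for the comparison of genotypes. The labels call the tissue liver in all 16. Not given in the sources used here were the age, sex and strain of the mice, the promoter or vector that supplies Cre and the deleted exon. The title of the series speaks of knockout before and after sexual maturity, but the labels do not say whether the stage is that of deletion or of tissue collection. Sample numbers of mature and immature mice fall into separate ranges, so stage and cohort cannot be told apart.

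Oestrogen receptor alpha is a ligand-activated transcription factor, and in liver it is the main receptor for oestradiol, with known roles in lipid handling. Sexual maturation changes the mouse liver mainly through the pattern of growth hormone release from the pituitary, which acts through STAT5 and sets the sex-biased genes of hepatocytes, among them Cyp and Mup genes. Cytokines such as interleukin 6 act on hepatocytes through STAT3, which drives acute phase genes and its own inhibitor Socs3. The study concerns steatosis and mitochondrial function, and this comparison asks how LERKO livers of the mature stage differ from those of the immature stage.

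The comparison covered 13379 genes that passed a filter on low counts. Total counts in the 8 libraries ran from 18123974 to 23053085. All 8 hepatocyte markers examined were detected in every library, with summed levels of 88069 to 132047 CPM in Mat.LERKO and 113520 to 161031 CPM in Imm.LERKO. CPM (cpm in edgeR) is the count of a gene relative to its library total, with totals scaled by trimmed mean (TMM) factors. In a principal component analysis of the 500 most variable genes, the first component held 38.7% of the variance and separated library 4 of Mat.LERKO, at a score of 44.8, from the other 7, at -15.4 to -2.76. The second component held 23% and separated library 4 of Imm.LERKO, at 31.3, from the others, at -16.1 to 6.38. The third held 16.6%, with library 2 of Imm.LERKO at 22.9. On each of the 3 components the ranges of the mature and immature libraries overlapped.

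**Figure D1:**
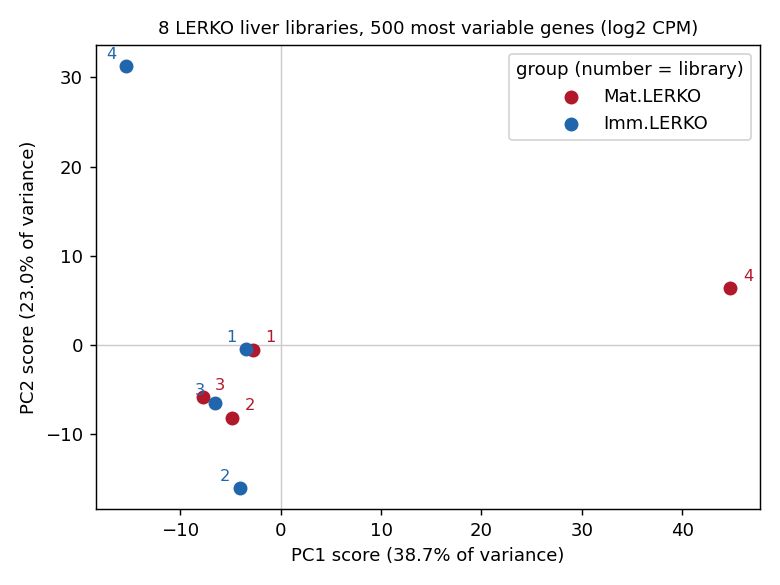
Scores of the 8 LERKO libraries on the first 2 principal components of log2 CPM over the 500 most variable genes, with mature libraries in red and immature ones in blue, numbered by library. Library 4 of Mat.LERKO lies alone on the first axis at 44.8 and library 4 of Imm.LERKO alone on the second at 31.3, while the other 6 libraries of both stages lie between -7.75 and -2.76 on the first axis.

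These 3 libraries stood apart in known groups of genes. Summed transcripts of 30 acute phase genes, which hepatocytes express in inflammation, stood at 40471, 43938, 45168 and 191469 CPM in Mat.LERKO and at 38509.9, 39490.2, 35588 and 32826 CPM in Imm.LERKO. Library 4 of Mat.LERKO also held 101 CPM of summed neutrophil markers, against 2.45 to 6.85 CPM in the other Mat.LERKO libraries and 2.19 to 4.52 CPM in Imm.LERKO. Its stellate cell and matrix markers summed to 218 CPM and its endothelial markers to 280.5 CPM, the lowest of the 8 libraries for both lists. Library 4 of Imm.LERKO held 233 CPM of skeletal muscle markers, against 13.8 to 25.3 CPM in Mat.LERKO and 10.7 to 19.4 CPM in the other Imm.LERKO libraries. All 20 muscle markers were detected in it. Its lipogenic genes summed to 45019 CPM, against 8079 to 14191 CPM in Mat.LERKO and 7257 to 12606 CPM in the other Imm.LERKO libraries.

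Xist, the RNA that silences an X chromosome in females, stood at 594, 469, 658 and 658 CPM in Mat.LERKO and at 481, 0.480, 735 and 679 CPM in Imm.LERKO. Library 2 of Imm.LERKO held 9 Xist counts, where the other 7 held 10452 to 13858. Transcripts of the Y-linked genes Ddx3y, Uty, Kdm5d and Eif2s3y were at 0 counts in all 8 libraries, library 2 of Imm.LERKO included. X-linked genes other than Xist and Tsix took 1.20% of the counts in that library, against 1.06 to 1.32% in Mat.LERKO and 1.31 to 1.35% in the other Imm.LERKO libraries. What sets this library apart was not tested.

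**Figure D2:**
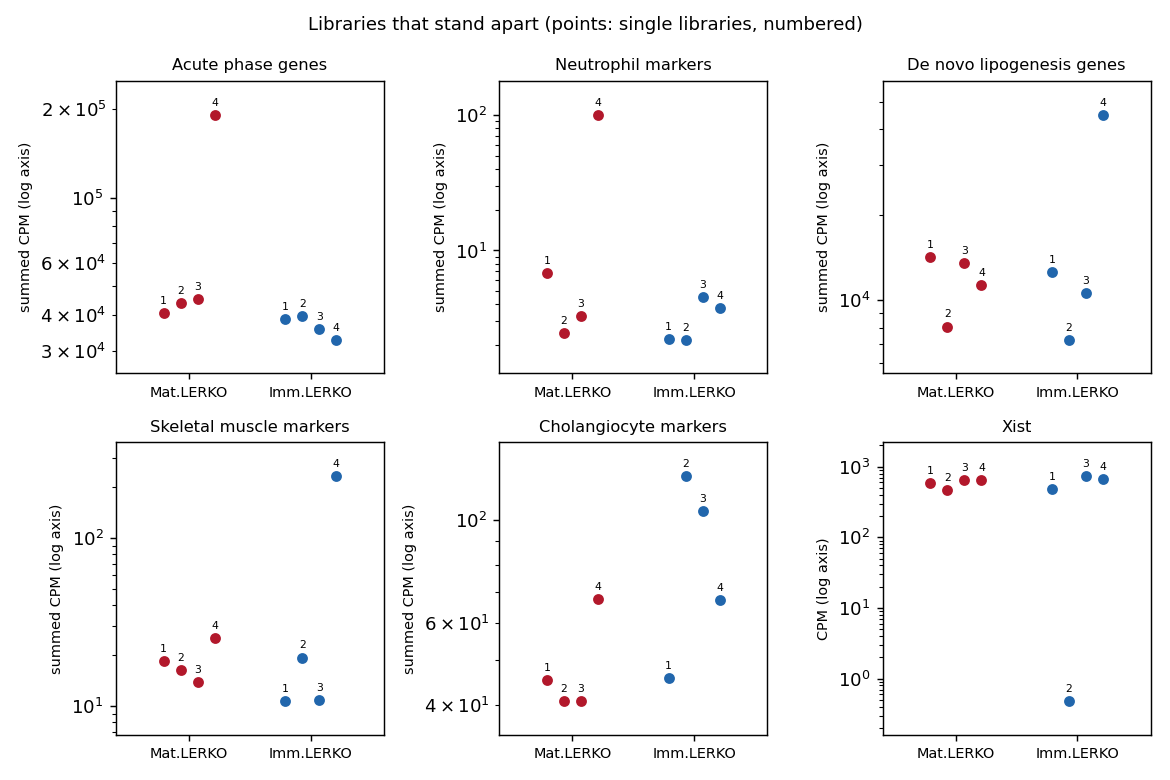
Summed CPM of 5 gene lists and CPM of Xist in each of the 8 LERKO libraries on log axes, Mat.LERKO left in red and Imm.LERKO right in blue, with the library number above each point. Library 4 of Mat.LERKO is alone in acute phase and neutrophil transcripts, library 4 of Imm.LERKO in lipogenic and muscle transcripts, and library 2 of Imm.LERKO in its low Xist level of 0.48 CPM.

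With edgeR's quasi-likelihood test, 0 of 13379 genes passed an adjusted p of 0.05 between Mat.LERKO and Imm.LERKO, 0% of those tested, and the smallest adjusted p was 0.951. An unadjusted p below 0.05 was reached by 660 genes, 4.93% of those tested, of which 414 (3.09%) were higher in Mat.LERKO and 246 (1.84%) lower. DESeq2 passed 6 genes, 0.045% of the 13345 genes to which it gave an adjusted p, 3 higher (0.0225%) and 3 lower (0.0225%), and 676 at an unadjusted p below 0.05 (5.07%). Limma-voom passed 0, with 566 at an unadjusted p below 0.05. Every mature library lay above every immature one for 118 genes (0.882%) and below for 85 (0.635%). The median log2 fold change over all genes was 0.00, and 50.4% of genes were positive. The 95% interval of the fold change lay within 2-fold in either direction for 83.5% of the genes and within 1.5-fold for 59.3%. The common biological coefficient of variation was 21.2%.

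**Figure D3:**
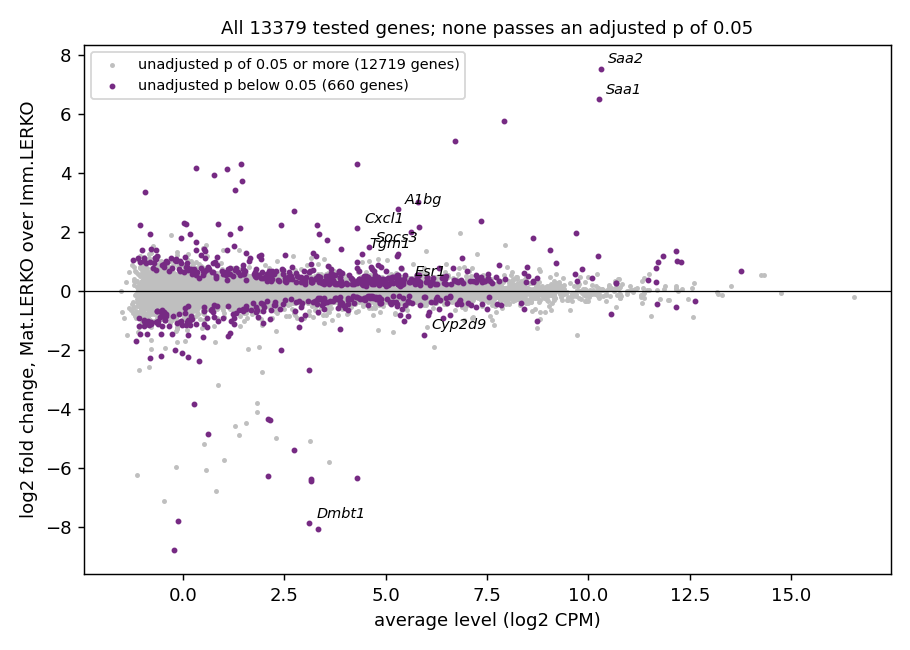
Log2 fold change of Mat.LERKO over Imm.LERKO (vertical) against average level in log2 CPM (horizontal) for the 13379 tested genes, with the 660 genes at an unadjusted p below 0.05 in purple. The points centre on 0.00, and Saa1 and Saa2 at the top owe their position to library 4 of Mat.LERKO.

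Esr1 itself stood at 15.8, 19.1, 16.4 and 13.9 CPM in Mat.LERKO and at 10.7, 12.6, 16 and 12.7 CPM in Imm.LERKO. The groups overlapped, and every one of these values lay below the 55.3 to 110 CPM of the 8 control libraries. Its log2 fold change between stages was 0.33 (SE 0.18, 95% interval -0.06 to 0.72, unadjusted p = 0.088, adjusted p = 0.955, edgeR). Esr1 (ENSMUSG00000019768) is annotated at chr10:4611593-5005614, forward strand, of GRCm38 (mm10), and its count takes in any exon outside the deletion. In bulk liver, fewer cells that express a gene and less of its RNA per cell cannot be told apart.

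The 8 genes with the smallest unadjusted p in the direction of higher levels in Mat.LERKO were Cxcl1, Socs3, Irf1, Csf1, Tgm1, A1bg, Saa2 and Saa1. Cxcl1, a chemokine that attracts neutrophils, stood at 70.6, 15.4, 15.9 and 84.4 CPM in Mat.LERKO and at 12, 6.56, 14.3 and 9.60 CPM in Imm.LERKO. All mature libraries lay above all immature ones, libraries 1 and 4 far above and libraries 2 and 3 just above. Its log2 fold change was 2.13 (SE 0.45), with an unadjusted p of 0.00023 in edgeR. Socs3, the inhibitor induced by STAT3 that ends cytokine signalling, stood at 51.1, 21.6, 32.6 and 58.2 CPM in Mat.LERKO and at 14.1, 21.7, 14.2 and 8.57 CPM in Imm.LERKO. Its groups touched, since library 2 of each had 21.6 and 21.7 CPM, and the log2 fold change was 1.48 (SE 0.34, unadjusted p = 0.0005, edgeR). Irf1, a transcription factor induced by interferon, stood at 52.3, 44.5, 34.3 and 44.7 CPM in Mat.LERKO and at 29.4, 21, 32.2 and 27.3 CPM in Imm.LERKO, with no overlap and a log2 fold change of 0.68 (SE 0.17, unadjusted p = 0.00098, edgeR). Csf1, the growth factor of macrophages, stood at 18, 17.9, 12.5 and 17.1 CPM in Mat.LERKO and at 12.6, 12, 9.54 and 9.30 CPM in Imm.LERKO, with a log2 fold change of 0.59 (SE 0.13, unadjusted p = 0.00044, edgeR). Only library 3 of Mat.LERKO lay within the immature range.

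All 8 genes named in this direction had an adjusted p of 0.951 in edgeR, so none passed. DESeq2 passed Cxcl1 (adjusted p = 0.0017), Socs3 (adjusted p = 0.028) and Tgm1 (adjusted p = 0.0060), and not Irf1 or Csf1. Without library 4 of Mat.LERKO, the one with raised acute phase transcripts, the log2 fold changes were 1.67 for Cxcl1, 1.26 for Socs3, 0.67 for Irf1 and 0.57 for Csf1. Without it and library 4 of Imm.LERKO they were 1.61, 1.06, 0.66 and 0.50 for the same genes. In controls, the stage fold changes of these genes were 0.75 for Cxcl1, 0.44 for Socs3, 0.37 for Irf1 and 0.37 for Csf1 on the log2 scale, and 0 passed in edgeR. The difference between genotypes was 1.39 (SE 0.63) for Cxcl1 and 1.04 (SE 0.47) for Socs3, with adjusted p-values of 0.773 and 0.773 in edgeR.

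Promoters of 3 of these genes are shown because they are known targets of the cytokine-activated factors STAT and NF-kB. Only starts whose window holds the motif were taken for display, so a match in each was fixed in advance. The windows hold the 250 bases before the RefSeq transcription start of GRCm38.p6, in the direction of the gene. Capitals mark matches on either strand to TTCNNNGAA (STAT) in Socs3 and Irf1 and to the NF-kB motif, GGG and TTCC with any 3 bases between them, in Cxcl1.
Cxcl1, chr5:90890995-90891244, forward strand: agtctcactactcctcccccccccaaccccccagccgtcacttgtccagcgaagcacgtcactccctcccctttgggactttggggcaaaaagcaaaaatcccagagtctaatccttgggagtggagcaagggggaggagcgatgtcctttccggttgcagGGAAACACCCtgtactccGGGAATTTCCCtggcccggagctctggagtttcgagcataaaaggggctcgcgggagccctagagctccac
Socs3, chr11:117969367-117969616, reverse strand: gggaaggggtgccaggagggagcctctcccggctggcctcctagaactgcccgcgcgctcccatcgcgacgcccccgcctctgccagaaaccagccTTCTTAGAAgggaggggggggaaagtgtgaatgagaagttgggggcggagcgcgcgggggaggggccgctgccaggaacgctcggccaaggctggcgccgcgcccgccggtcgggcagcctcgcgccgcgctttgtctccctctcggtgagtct
Irf1, chr11:53769764-53770013, forward strand, 1 of 2 starts: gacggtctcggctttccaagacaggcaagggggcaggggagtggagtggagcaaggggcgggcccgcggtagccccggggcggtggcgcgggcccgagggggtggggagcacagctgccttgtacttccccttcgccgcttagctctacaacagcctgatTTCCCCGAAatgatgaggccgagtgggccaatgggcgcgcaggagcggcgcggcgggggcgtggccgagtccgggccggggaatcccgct
In Cxcl1 the 3 matches begin 89, 71 and 70 bases before the start, and the last 2 overlap each other. The Socs3 match begins 154 and the Irf1 match 90 bases before the start. No window of the 8 genes held both motifs. The STAT motif occurred in 4 of the 8 genes (A1bg, Irf1, Socs3 and Tgm1), against 7.42% of 10237 tested genes with an entry and 7.02% of 32851 windows. The NF-kB motif occurred in 2 of the 8 (Csf1 and Cxcl1), against 6.03% of the tested genes and 4.65% of windows. Of the 8 genes with the smallest p in the direction of lower levels, 3 had an entry, and each motif occurred in 1 of the 3, 4930402H24Rik for both. The 8 genes of each direction were picked by small p from these data, so the shares are no test of enrichment. A match of letters is a description and was not tested as a binding site.

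Tgm1, a transglutaminase that crosslinks proteins in epithelia, stood at 18.4, 41, 38.8 and 52.2 CPM in Mat.LERKO and at 12.9, 19.7, 15.5 and 14.4 CPM in Imm.LERKO. Library 1 of Mat.LERKO lay within the immature range and the other 3 at more than 1.5-fold the highest immature library. The log2 fold change was 1.27 (SE 0.26, unadjusted p = 0.00016, edgeR), and without that library it was 1.49, the 1 gene to pass in edgeR (adjusted p = 0.029). Control libraries held 14.6, 13.1, 16.2 and 21.6 CPM in Mat.Con and 16.4, 19.3, 13.6 and 11.3 CPM in Imm.Con. A1bg, a plasma glycoprotein gene with female-biased expression in mouse liver, stood at 24.4, 129, 40 and 195 CPM in Mat.LERKO and at 6.71, 11.7, 18.3 and 20.3 CPM in Imm.LERKO, without overlap. Its log2 fold change was 2.77 (SE 0.64, unadjusted p = 0.00056, edgeR), and 2.20 without library 4 of Mat.LERKO.

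The serum amyloid genes Saa2 and Saa1, classic acute phase transcripts and near-identical copies whose reads the counting may have split, complete the 8. Saa2 stood at 49.5, 13.5, 13.9 and 19910 CPM in Mat.LERKO and at 60.1, 6.50, 22.8 and 19.4 CPM in Imm.LERKO. Saa1 stood at 94.4, 25.5, 33.1 and 19031 CPM in Mat.LERKO and at 113, 15.2, 42.6 and 42.5 CPM in Imm.LERKO. Library 4 of Mat.LERKO carried both fold changes, 7.52 and 6.49 on the log2 scale, and without it they were -0.10 and -0.08.

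**Figure D4:**
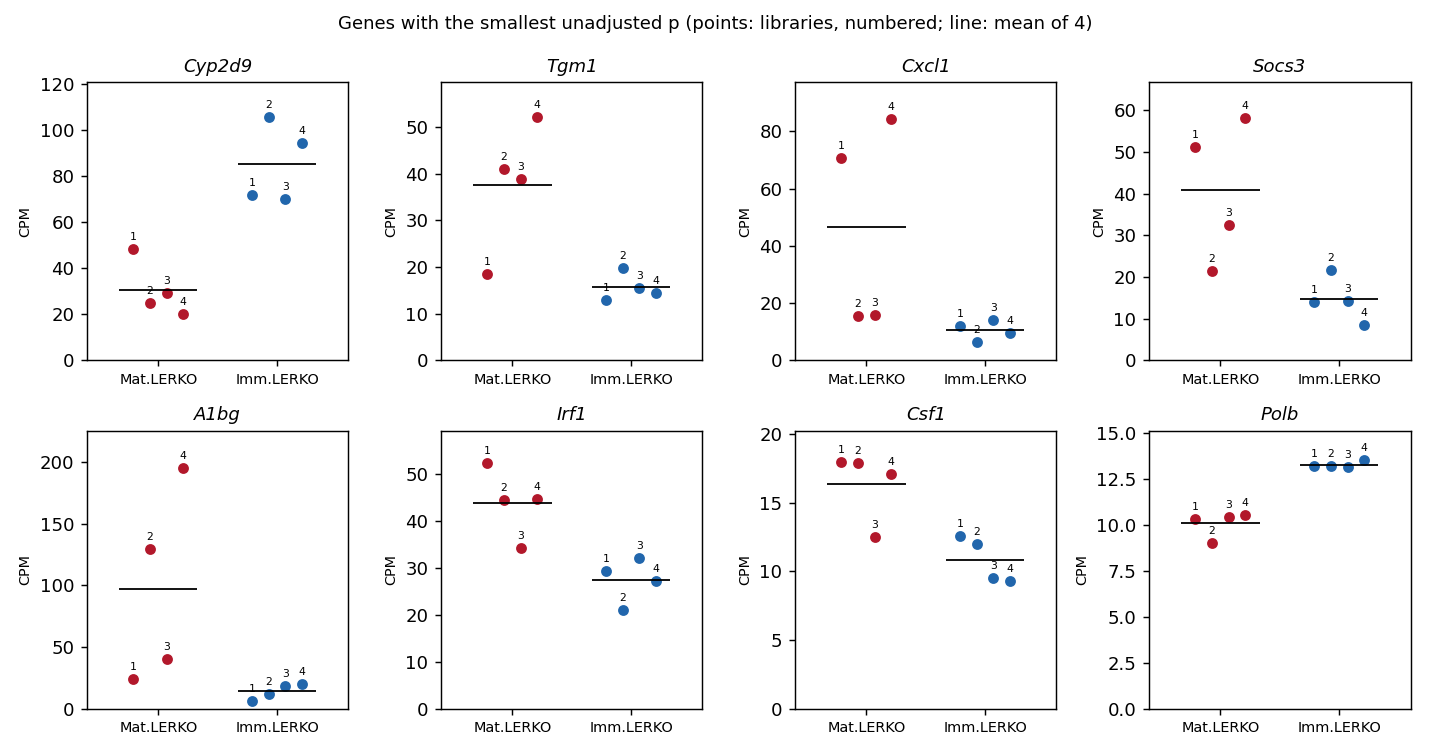
CPM of 8 genes with small unadjusted p in each LERKO library, Mat.LERKO left in red and Imm.LERKO right in blue, with library numbers and a line at the mean of 4. Cyp2d9 and Polb lie lower in every mature library, Cxcl1, A1bg and Irf1 higher in every mature library, and 1 mature library of each of Tgm1, Socs3 and Csf1 lies within the immature range.

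In the direction of lower levels in Mat.LERKO, Cyp2d9 had the smallest unadjusted p of all genes. It encodes a male-biased cytochrome P450 that hydroxylates testosterone, and stood at 48.2, 24.7, 29.3 and 20 CPM in Mat.LERKO and at 71.7, 105, 70.2 and 94.4 CPM in Imm.LERKO. The groups did not overlap, and the log2 fold change was -1.48 (SE 0.29, 95% interval -2.10 to -0.86), with an unadjusted p of 0.00011 and an adjusted p of 0.951 in edgeR. DESeq2 passed it (adjusted p = 0.0012). With single libraries left out the log2 fold change ran from -1.79 to -1.33. Controls held 88.4, 42.8, 41.6 and 64.7 CPM in Mat.Con and 65.1, 99.8, 60.3 and 54.4 CPM in Imm.Con, a log2 fold change of -0.24 (SE 0.28). The genotypes differed by -1.25 (SE 0.40, unadjusted p = 0.0072, adjusted p = 0.723, edgeR). Cyp2d9 belongs to a cluster of near-identical Cyp2d genes, so its counts may include reads of its neighbours.

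Polb, the polymerase of base excision repair, stood at 10.3, 9.03, 10.4 and 10.5 CPM in Mat.LERKO and at 13.2, 13.2, 13.2 and 13.5 CPM in Imm.LERKO. The immature libraries lay close together and above every mature one, a log2 fold change of -0.40 (SE 0.11, unadjusted p = 0.0018, edgeR). Slc25a28, a mitochondrial iron carrier, stood at 14.3, 14.8, 15.3 and 16.6 CPM in Mat.LERKO and at 17.1, 19.7, 18.4 and 19.1 CPM in Imm.LERKO, and its log2 fold change was -0.28 (SE 0.08). The group ranges of both genes were narrow. Csnk1g3, a casein kinase, averaged 39.9 ± 4.80 CPM in Mat.LERKO and 52 ± 3.84 CPM in Imm.LERKO (SD, n = 4 each). Xkr9, of a family of phospholipid scramblases, averaged 8.75 ± 1.23 CPM in Mat.LERKO and 13.4 ± 2.49 CPM in Imm.LERKO (SD, n = 4 each). The less characterised 4930402H24Rik averaged 26 ± 3.14 CPM in Mat.LERKO and 34.2 ± 3 CPM in Imm.LERKO (SD, n = 4 each), and the predicted gene Gm30931 averaged 0.522 ± 0.292 CPM in Mat.LERKO and 1.47 ± 0.301 CPM in Imm.LERKO (SD, n = 4 each). All 6 had immature libraries above every mature one, as had 0.635% of all genes, and picking genes by small p favours such separation. Their adjusted p was 0.951 in edgeR, and DESeq2 passed none of them.

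Dmbt1, a secreted mucosal glycoprotein of bile duct epithelium, stood at 0, 0.253, 0.152 and 0 CPM in Mat.LERKO and at 0, 70.1, 36.5 and 3.48 CPM in Imm.LERKO. In counts, that is 0, 6, 3 and 0 in Mat.LERKO against 0, 1315, 655 and 71 in Imm.LERKO, so that library 1 of both groups was at 0. The fitted log2 fold change was -7.87 (SE 1.79, unadjusted p = 0.00046, adjusted p = 0.951, edgeR). Controls lay the other way, at 0, 17.2, 5 and 4.16 CPM in Mat.Con and 0, 0.413, 0 and 0 CPM in Imm.Con. The gene overlaps Fgfr2 on the opposite strand, and reads of the pair may not have been separated.

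The remaining genes that DESeq2 passed, Myom2 and Myl3, encode muscle proteins and were chosen after their values were seen. Both were at 0 counts in all 4 libraries of Mat.LERKO and in 3 of Imm.LERKO, and library 4 of Imm.LERKO held 68 counts of Myom2 and 109 of Myl3. This is the library with 233 CPM of summed muscle markers.

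Among 19 tested male-biased liver genes, 5 had a positive fold change and 14 a negative one, with a median of -0.49 on the log2 scale. At an unadjusted p below 0.05, 0 were higher in Mat.LERKO and 4 lower, against 3.09% and 1.84% of all genes, and 0 passed the adjusted threshold. Mup21, a major urinary protein gene, stood at 16.3, 6.37, 6.34 and 8 CPM in Mat.LERKO and at 16.3, 34, 28 and 13 CPM in Imm.LERKO. Mup3 stood at 3376, 1308, 1356 and 2293 CPM in Mat.LERKO and at 2421, 4764, 5730 and 1988 CPM in Imm.LERKO, with libraries 2 and 3 of Imm.LERKO highest. Reads of Mup genes, which are near-identical copies, may have been split between them. Hsd3b5, a male-specific hydroxysteroid dehydrogenase, stood at 0.355, 0.548, 0.558 and 0.0592 CPM in Mat.LERKO and at 0.0920, 30.3, 1.95 and 0.294 CPM in Imm.LERKO. Its level in library 2 of Imm.LERKO, the library low in Xist, set a log2 fold change of -4.34, which was -0.92 without it. Susd4 averaged 0.962 ± 0.379 CPM in Mat.LERKO and 2.62 ± 1.38 CPM in Imm.LERKO (SD, n = 4 each), without overlap. Without library 2 of Imm.LERKO the median of the list was -0.36, without it and library 4 of Mat.LERKO -0.19, without library 3 of Imm.LERKO it was -0.31, and without libraries 4 of both groups -0.75. In controls it was 0.00.

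Among 27 female-biased genes, 16 had a positive fold change (median 0.06), and 5 were higher and 0 lower at an unadjusted p below 0.05, against 3.09% and 1.84% of all genes. With single libraries left out the median ran from 0.0025, without library 4 of Imm.LERKO, to 0.17, without library 3 of Imm.LERKO. The 4 with the smallest p, A1bg and the cytochrome P450 genes Cyp3a41b, Cyp3a16 and Cyp3a41a, all had their highest level in library 4 of Mat.LERKO. Cyp3a16 stood at 7.92, 52.4, 3.14 and 202 CPM in Mat.LERKO and at 4.23, 0.906, 7.75 and 0.637 CPM in Imm.LERKO. Cyp3a41a stood at 92.6, 163, 23.5 and 358 CPM in Mat.LERKO and at 47.7, 1.55, 26.2 and 2.79 CPM in Imm.LERKO. Libraries 2 and 4 of Imm.LERKO were lowest for both genes, the log2 fold change of Cyp3a16 was 4.30 with all libraries and 2.67 without library 4 of Mat.LERKO, and the 3 Cyp3a genes are close copies. The abundant Cyp2a4, a steroid hydroxylase, did not show this order and averaged 1024 ± 191 CPM in Mat.LERKO and 996 ± 382 CPM in Imm.LERKO (SD, n = 4 each).

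The growth hormone, STAT5 and IGF list had 15 of 23 positive and a median of 0.20, with 4 higher and 0 lower at an unadjusted p below 0.05 (all genes 3.09% and 1.84%). Stat5a, which carries growth hormone and prolactin signals, stood at 16.6, 16.4, 14 and 17.2 CPM in Mat.LERKO and at 13, 9.44, 12.3 and 9.50 CPM in Imm.LERKO, without overlap, a log2 fold change of 0.53 (SE 0.15, unadjusted p = 0.0022, adjusted p = 0.951, edgeR). Prlr, the prolactin receptor, averaged 447 ± 98.1 CPM in Mat.LERKO and 352 ± 29.1 CPM in Imm.LERKO (SD, n = 4 each). Igfals, which holds IGF1 in its circulating complex, stood at 151, 210.3, 179 and 241 CPM in Mat.LERKO and at 163, 183, 159 and 103 CPM in Imm.LERKO. Igf1 averaged 726 ± 67.7 CPM in Mat.LERKO and 633 ± 108 CPM in Imm.LERKO (SD, n = 4 each), with a 95% interval of the log2 fold change of -0.07 to 0.47. Single libraries moved the median of the list between 0.06, without library 3 of Mat.LERKO, and 0.32, without library 2 of Imm.LERKO. Without the latter, 9 members were higher at an unadjusted p below 0.05 (all genes 3.48%), and without library 4 of Imm.LERKO 2 (all genes 2.94%). Socs3, the member with the smallest p, is also in the acute phase list.

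All 30 acute phase genes had positive fold changes, with a median of 0.99, and 20 were higher at an unadjusted p below 0.05, against 3.09% of all genes. Without library 4 of Mat.LERKO, 19 were positive, with a median of 0.06, and without it and library 4 of Imm.LERKO 14 of 30, with a median of -0.07. At an unadjusted p below 0.05, 7 members were higher in the first setting, against 3.27% of all genes, and 4 in the second, against 3.30%. In both settings 0 were lower. C3, the central complement protein, stood at 11830, 16865, 14588 and 29586 CPM in Mat.LERKO and at 11951, 13068, 10311 and 9992 CPM in Imm.LERKO. Fgb, a fibrinogen chain, stood at 4478, 4136, 5192 and 16079 CPM in Mat.LERKO and at 3603, 4053, 3865 and 3785 CPM in Imm.LERKO. Every mature library lay above every immature one for Fgb, and its log2 fold change of 0.97 was 0.27 without library 4 of Mat.LERKO. Steap4, a metalloreductase induced by inflammation, stood at 142, 136, 199 and 252 CPM in Mat.LERKO and at 141, 90.5, 111 and 112 CPM in Imm.LERKO. Complement and coagulation genes, 28 of 31 positive with a median of 0.29, had a median of 0.05 without library 4 of Mat.LERKO.

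Interferon and antigen presentation genes had 27 of 32 positive and a median of 0.18, and 0.10 without library 4 of Mat.LERKO. Stat2, which carries the type I interferon signal, stood at 46.9, 61.4, 71.8 and 73.2 CPM in Mat.LERKO and at 48.9, 56.8, 42.9 and 47.1 CPM in Imm.LERKO. B2m, the light chain of MHC class I, averaged 1405 ± 72.5 CPM in Mat.LERKO and 1373 ± 105 CPM in Imm.LERKO (SD, n = 4 each). At an unadjusted p below 0.05, 3 members were higher and 0 lower, against 3.09% and 1.84% of all genes. A 95% interval within 2-fold was found for 29 of 32, against 83.5% of all genes.

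Cell cycle and DNA replication genes leaned to lower levels in Mat.LERKO without any passing the adjusted threshold in edgeR. Of 29 tested, 2 had a positive fold change and 27 a negative one (median -0.26), and 8 were lower and 0 higher at an unadjusted p below 0.05, against 1.84% and 3.09% of all genes. Mcm6, a subunit of the replicative helicase, stood at 5.53, 4.68, 4.87 and 5.92 CPM in Mat.LERKO and at 9.29, 9.28, 6.30 and 15.9 CPM in Imm.LERKO, without overlap, -0.96 on the log2 scale (SE 0.35, edgeR adjusted p = 0.955). Mcm3, of the same helicase, stood at 3.55, 4.09, 2.18 and 2.55 CPM in Mat.LERKO and at 6.39, 5.54, 3.35 and 8.86 CPM in Imm.LERKO. Both helicase subunits were lowest, within Imm.LERKO, in library 3. Cdk1, the kinase that starts mitosis, stood at 0.965, 0.801, 0.558 and 0.652 CPM in Mat.LERKO and at 1.06, 1.65, 1.23 and 1.96 CPM in Imm.LERKO. Hells, a chromatin remodeller of dividing cells, stood at 1.02, 0.801, 0.659 and 0.711 CPM in Mat.LERKO and at 1.38, 1.33, 1.39 and 2.11 CPM in Imm.LERKO. Library 4 of Imm.LERKO was the highest of its group for these 4 genes, and without it the log2 fold change of Mcm6 was -0.66. The abundant members lay closer together, Pcna at 19.6 ± 2.06 CPM in Mat.LERKO and 21.1 ± 2.87 CPM in Imm.LERKO and Ccnd1 at 129 ± 23 CPM in Mat.LERKO and 123 ± 31.9 CPM in Imm.LERKO (SD, n = 4 each). With single libraries left out the median ran from -0.51, without library 4 of Mat.LERKO, to -0.19, without library 4 of Imm.LERKO. In the latter setting 23 of 29 were negative and 3 were lower at an unadjusted p below 0.05, against 2.18% of all genes. In controls the list had a median of 0.62, with 27 of 29 positive.

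De novo lipogenesis genes had 3 of 25 positive and a median of -0.44, with 0 in either direction at an unadjusted p below 0.05. Fasn, fatty acid synthase, stood at 743, 374, 618 and 267 CPM in Mat.LERKO and at 918, 322, 328 and 4024 CPM in Imm.LERKO. Scd1, the stearoyl-CoA desaturase, stood at 5799, 1694, 6037 and 6344 CPM in Mat.LERKO and at 4549, 1889.7, 4180 and 25702 CPM in Imm.LERKO. Library 4 of Imm.LERKO was far above all others for both. Their log2 fold changes of -1.48 and -0.87 were -0.06 and 0.49 without it. In the same setting the median of the list was 0.02, with 13 of 25 positive, and it was 0.18 without libraries 4 of both groups. Cholesterol synthesis genes had a median of -0.14 with all libraries and 0.19 without library 4 of Imm.LERKO. Library 4 of Imm.LERKO also holds the muscle transcripts, and the part of these in the lipogenic values was not tested.

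Fatty acid oxidation, ketogenesis and PPAR-alpha target genes had 5 of 34 positive and a median of -0.24, with 2 lower and 0 higher at an unadjusted p below 0.05 (all genes 1.84% and 3.09%). Ppargc1a, a coactivator of oxidative and gluconeogenic genes, stood at 12.7, 12.2, 12.3 and 14.6 CPM in Mat.LERKO and at 18.4, 18.1, 13.6 and 26.1 CPM in Imm.LERKO, -0.56 on the log2 scale (SE 0.19, edgeR adjusted p = 0.955). Fabp1, which binds fatty acids in hepatocytes, reached 4173, 3810.1, 3787 and 2390.4 CPM in Mat.LERKO and 3412, 6135, 7277 and 3640.2 CPM in Imm.LERKO. With single libraries left out the median ran from -0.34 to -0.12, and in controls, which share no library with this comparison, it was -0.45.

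Gluconeogenesis, glycolysis and glycogen genes had 6 of 26 positive and a median of -0.28. At an unadjusted p below 0.05, 4 were lower and 0 higher (all genes 1.84% and 3.09%). Tat, a tyrosine aminotransferase induced by glucocorticoids, stood at 1023, 931, 879 and 858 CPM in Mat.LERKO and at 1610.2, 1602, 1034 and 2142 CPM in Imm.LERKO, with every mature library below every immature one. Its log2 fold change was -0.79 (SE 0.28, adjusted p = 0.955, edgeR). Pck1, whose enzyme limits the rate of gluconeogenesis, reached 2961, 2222, 2223 and 2303 CPM in Mat.LERKO and 3013, 4281, 3125 and 2719.5 CPM in Imm.LERKO. Without library 4 of Imm.LERKO the median of the list was -0.14 and without libraries 4 of both groups -0.08.

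Genes of the unfolded protein and integrated stress responses had 15 of 22 positive and a median of 0.31, with 5 higher and 1 lower at an unadjusted p below 0.05 (all genes 3.09% and 1.84%). Sdf2l1, an endoplasmic reticulum chaperone component, stood at 6.80, 23, 52.1 and 28.4 CPM in Mat.LERKO and at 11.3, 11.7, 9.20 and 8.81 CPM in Imm.LERKO. Pdia4, a disulfide isomerase of the same compartment, stood at 133, 261, 365 and 196 CPM in Mat.LERKO and at 194, 181, 128 and 139 CPM in Imm.LERKO. Xbp1, the transcription factor of the response, stood at 122, 173, 276 and 164 CPM in Mat.LERKO and at 124, 163, 109 and 115 CPM in Imm.LERKO. Library 3 of Mat.LERKO was highest for all 3, library 1 of Mat.LERKO lay within or below the immature range, and without library 3 of Mat.LERKO the median was 0.10. The same library stood apart in the clock gene Arntl, a core activator, at 0.914, 3.29, 16.3 and 1.07 CPM in Mat.LERKO and 3.40, 1.33, 2.34 and 1.08 CPM in Imm.LERKO. The log2 fold change of Arntl was 1.40, and -0.20 without that library. Its partner Clock stood at 15.3, 23.9, 33.8 and 21.4 CPM in Mat.LERKO and at 21.8, 22.1, 17.5 and 12.5 CPM in Imm.LERKO. The clock list as a whole had 8 of 20 positive, a median of -0.06 and 0 members at an unadjusted p below 0.05. The labels do not give the times of tissue collection.

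All 58 tested nuclear-encoded respiratory chain subunits, of 59 listed, had negative fold changes, and all were small. Their median was -0.18, the range -0.48 to -0.06, and all 58 had a 95% interval within 2-fold, against 83.5% of all genes. At an unadjusted p below 0.05, 4 were lower and 0 higher, against 1.84% and 3.09% of all genes. In controls 47 of 58 were negative, with a median of -0.08. The difference between genotypes had a median of -0.11, with 0 members at an unadjusted p below 0.05. Ndufs3, of complex I, stood at 73.1, 65.7, 70.4 and 70.4 CPM in Mat.LERKO and at 79.2, 79.5, 85.3 and 78.8 CPM in Imm.LERKO, without overlap. Ndufa4, of complex IV, stood at 210.1, 146, 215 and 184 CPM in Mat.LERKO and at 189.7, 275, 407 and 184 CPM in Imm.LERKO, with library 3 of Imm.LERKO highest. Atp5b, of ATP synthase, averaged 1042 ± 100.4 CPM in Mat.LERKO and 1103 ± 76.9 CPM in Imm.LERKO (SD, n = 4 each). Without library 3 of Imm.LERKO the median was -0.08. Without library 4 of Imm.LERKO it was -0.22, and 15 of 58 were lower at an unadjusted p below 0.05, against 2.18% of all genes. Without libraries 4 of both groups 11 were lower, against 3.16%, and without library 4 of Mat.LERKO alone 3, against 2.55%.

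Steroid and nuclear hormone receptors had 10 of 15 positive and a median of 0.07. Nr0b2, a repressor induced by bile acids, stood at 36.2, 27.3, 13.5 and 23.2 CPM in Mat.LERKO and at 52.7, 27.3, 55.2 and 40.7 CPM in Imm.LERKO, with libraries 2 of both groups at 27.3 CPM. Oestrogen-responsive liver genes had 9 of 16 positive, a median of 0.05 and 0 members at an unadjusted p below 0.05, against 4.93% of all genes. Without library 2 of Imm.LERKO, 4 of these 16 were higher and 0 lower at that p, against 3.48% and 2.39% of all genes. The count stayed at 0 without library 4 of Mat.LERKO and without library 4 of Imm.LERKO. Hepatocyte transcription factors had 14 of 18 positive and a median of 0.17. At an unadjusted p below 0.05, 3 members were higher, Onecut2 and Prox1 among them, and 0 lower (all genes 3.09% and 1.84%). Prox1, which specifies hepatocytes, stood at 183, 282, 177 and 212 CPM in Mat.LERKO and at 196, 153, 165 and 164 CPM in Imm.LERKO. Hnf4a averaged 929 ± 163 CPM in Mat.LERKO and 797 ± 97.5 CPM in Imm.LERKO (SD, n = 4 each). Of 19 corepressors and coactivators, Ncoa6, a coactivator of nuclear receptors, stood at 28.9, 36.1, 32.3 and 33.7 CPM in Mat.LERKO and at 27.5, 26.9, 24 and 28.8 CPM in Imm.LERKO, without overlap. All 19 members had a 95% interval within 2-fold, against 83.5% of all genes.

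**Figure D5:**
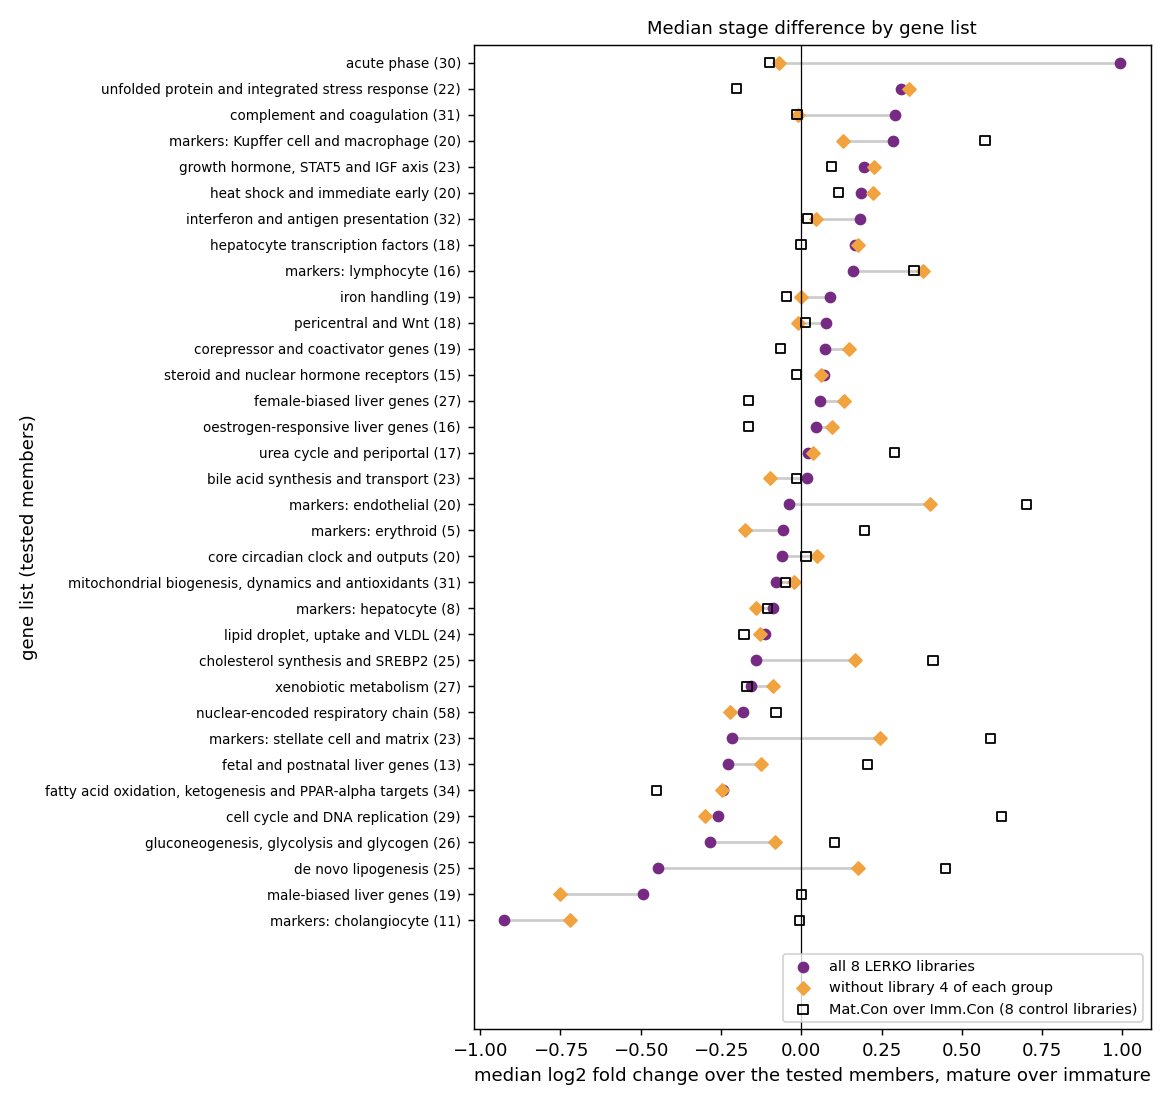
Median log2 fold change, mature over immature, of each gene list with at least 5 tested members (number in brackets), for all 8 LERKO libraries (circles), without library 4 of each LERKO group (diamonds) and for the 8 controls (squares). The acute phase median is 0.99 with all LERKO libraries and -0.07 without the 2, the lipogenic median -0.44 and 0.18, and the male-biased and cholangiocyte medians are below 0 in both. Muscle, pancreas and adipose markers are left out.

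Markers of other cell types followed in part the libraries that stood apart. Of 11 cholangiocyte markers 2 were positive, with a median of -0.92. At an unadjusted p below 0.05, 4 were lower and 0 higher, against 1.84% and 3.09% of all genes. Tspan8 stood at 0.508, 0.380, 0.406 and 0.355 CPM in Mat.LERKO and at 0.552, 2.40, 3.18 and 1.08 CPM in Imm.LERKO, and Krt19, a keratin of bile ducts, at 0.508, 1.14, 0.862 and 0.296 CPM in Mat.LERKO and 1.33, 3.41, 2.40 and 1.42 CPM in Imm.LERKO. The mature libraries lay below the immature ones for both genes. The summed level of the list was 45.2, 40.8, 40.8 and 67.5 CPM in Mat.LERKO and 45.8, 124, 104 and 67.2 CPM in Imm.LERKO, with libraries 2 and 3 of Imm.LERKO highest. Dmbt1, a member of this list, had its highest levels in the same libraries and makes up a large part of their sums. Stellate cell and matrix markers had a median of -0.22, which was -0.01 without library 4 of Mat.LERKO and 0.24 without libraries 4 of both groups. Endothelial markers had a median of -0.04, and 0.40 without both of these. Kupffer cell and macrophage markers had 19 of 20 positive and a median of 0.29, and 0.09 without library 4 of Mat.LERKO. In controls the medians of these lists were -0.01 for cholangiocyte, 0.59 for stellate, 0.70 for endothelial and 0.57 for Kupffer cell markers. The part of cell mixture in any single gene was not tested.

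Stage differences in LERKO and in control livers were then compared gene by gene. Between Mat.Con and Imm.Con 0 of 13379 genes passed in edgeR (0%), with 1317 at an unadjusted p below 0.05 (9.84%), 1011 higher in Mat.Con (7.56%) and 306 lower (2.29%). DESeq2 passed 74 (0.555%), 67 higher (0.502%) and 7 lower (0.0525%), with 1419 at an unadjusted p below 0.05 (10.6%). For the difference of the 2 stage effects, LERKO minus control, 0 passed in edgeR (0%), the smallest adjusted p was 0.566, and 850 genes had an unadjusted p below 0.05 (6.35%), 269 with a positive difference (2.01%) and 581 with a negative one (4.34%). DESeq2 passed 22 (0.165%), 1 positive (Tbl1xr1, 0.00749%) and 21 negative (0.157%), most of them known muscle genes, with 911 at an unadjusted p below 0.05 (6.83%). Across the 13379 genes, which are not independent replicates and share the libraries of their genotype, the log2 fold changes in LERKO and in controls had a Pearson r of -0.48 and a Spearman rho of 0.01, and 51.2% had the same sign. Without libraries 4 of both LERKO groups, r was 0.25, rho 0.24 and the share 57.2%. Without the 3 libraries richest in muscle transcripts, picked with the data in view, r was 0.18, rho 0.31 and the share 61.2%. These are libraries 1 and 2 of Mat.Con, at 1090 and 466 CPM of summed muscle markers, and library 4 of Imm.LERKO, so the muscle transcripts lie in the mature group of the controls and in the immature group of LERKO.

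Tbl1xr1, a subunit of nuclear receptor corepressor complexes, stood at 39.1, 39.9, 35.2 and 33.4 CPM in Mat.LERKO and 37.1, 37.9, 34.4 and 31 CPM in Imm.LERKO, and at 29.6, 28.5, 30.9 and 28.4 CPM in Mat.Con and 45.6, 40, 42.4 and 53.6 CPM in Imm.Con. The LERKO groups overlapped and the control groups did not. The difference between genotypes was 0.70 (SE 0.14, adjusted p = 0.566, edgeR; adjusted p = 0.0039, DESeq2). Btd, or biotinidase, which recycles biotin, reached 79.9, 85.7, 94.5 and 94 CPM in Mat.LERKO and 73.8, 76.8, 82.3 and 67.5 CPM in Imm.LERKO, and 58.4, 70.3, 64.8 and 66.8 CPM in Mat.Con and 72.9, 82.5, 74.7 and 91.1 CPM in Imm.Con. Its difference was 0.54 (SE 0.14, adjusted p = 0.566, edgeR). Pik3ap1, an adaptor of phosphoinositide 3-kinase, stood at 72.4, 88.7, 74.5 and 82.8 CPM in Mat.LERKO and 56.9, 68.6, 60.5 and 49.8 CPM in Imm.LERKO, with mature above immature in every library and a difference of 0.63 (SE 0.18). Sowahb and Zfp791 had differences of 1.19 (SE 0.32) and 1.27 (SE 0.34). Among negative differences, that of Dmbt1 was -13.76 (SE 2.58), that of the calcium channel subunit Cacna2d1 -3.80 (SE 0.76) and that of Chtf18, which loads the replication clamp, -2.60 (SE 0.57). Those of the muscle genes Tnni2 and Ttn were -12.06 (SE 2.64) and -13.47 (SE 3.04). None of these 10 genes passed in edgeR.

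Of the remaining lists, fetal and postnatal liver genes had 6 of 13 positive (median -0.23), lipid droplet, uptake and VLDL genes 10 of 24 (-0.11), bile acid genes 12 of 23 (0.02) and xenobiotic metabolism genes 5 of 27 (-0.16). Klb, the coreceptor through which FGF15 restrains bile acid synthesis, stood at 28.5, 36.9, 32 and 38.3 CPM in Mat.LERKO and at 25.6, 24.4, 28.6 and 28.3 CPM in Imm.LERKO, with library 1 of Mat.LERKO within the immature range. Cyp7a1, the rate-limiting enzyme of bile acid synthesis, and Plin2, which coats lipid droplets, were chosen after their values were seen. Cyp7a1 stood at 98.7, 170.5, 116 and 255 CPM in Mat.LERKO and at 271, 211, 39.8 and 79 CPM in Imm.LERKO, a spread within each group wider than the difference between them. Plin2 averaged 306 ± 113 CPM in Mat.LERKO and 300.3 ± 74.1 CPM in Imm.LERKO (SD, n = 4 each). Heat shock and immediate early genes had 12 of 20 positive (0.19), mitochondrial biogenesis, dynamics and antioxidant genes 11 of 31 (-0.08), urea cycle and periportal genes 10 of 17 (0.02), pericentral and Wnt genes 10 of 18 (0.08) and iron handling genes 11 of 19 (0.09). Glul, the glutamine synthetase of pericentral hepatocytes, averaged 1163 ± 188 CPM in Mat.LERKO and 1204 ± 77.5 CPM in Imm.LERKO, and Cps1, which starts the urea cycle in periportal ones, 3815 ± 519 CPM in Mat.LERKO and 3637 ± 1167 CPM in Imm.LERKO (SD, n = 4 each). Hepatocyte markers had 2 of 8 positive (-0.09), lymphocyte markers 10 of 16 (0.16), erythroid markers 0 of 5 (-0.06), neutrophil markers 4 of 4 (2.37, and 0.51 without library 4 of Mat.LERKO) and muscle markers 0 of 17 (-5.07, and 1.02 without library 4 of Imm.LERKO). Members below the filter on low counts are not in these counts.

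By list, the difference LERKO minus control had a median of 1.18 for acute phase, -1.21 for cell cycle, -0.88 for lipogenic, -0.86 for cholangiocyte, -0.84 for stellate, -0.76 for endothelial, -0.58 for cholesterol synthesis, -0.59 for fetal and postnatal, 0.53 for unfolded protein response and -0.48 for male-biased genes, beside -0.01 for all genes. For muscle markers it was -15.31, for neutrophil markers 1.89 and for adipose markers -1.21. At an unadjusted p below 0.05, 15 of 29 cell cycle genes and 12 of 23 stellate markers had a negative difference, against 4.34% of all genes. Of 30 acute phase genes, 18 had a positive one, against 2.01%. The 3 libraries that stand apart and the muscle-rich controls enter each of these medians. The medians that follow are of the stage contrast in LERKO alone and are not counterparts of the differences above. Without libraries 4 of both LERKO groups, the medians in LERKO were -0.07 for acute phase, 0.18 for lipogenic and 0.17 for cholesterol synthesis genes. They were 0.24 for stellate and 0.40 for endothelial markers. In that setting cell cycle genes were at -0.30, cholangiocyte markers at -0.72 and male-biased genes at -0.75. Fetal and postnatal genes were at -0.13 and unfolded protein response genes at 0.34.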

How the data were processed

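Messenger RNA libraries from 16 livers, 4 in each of 4 groups, were prepared with a stranded kit and sequenced from both ends, per the labels. The deposited table holds a read count per gene and library with no normalization. In 5 of the deposited columns 2 predicted genes have values that are not whole, as an estimated count can, and these 10 values were rounded. The submitters' processing notes name STAR, R 4.05, limma and the build mm10. Not given in the sources used here are the counter, its strand setting and the annotation, so reads of overlapping genes on opposite strands may not have been separated. Libraries were grouped by the group label. Replicate numbers follow the order of deposit and pair nothing.

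Of 35502 genes, 15496 had a count of 0 in all libraries and 13379 passed filterByExpr with a minimum count of 10 and a minimum total of 15. TMM factors ran from 0.852 to 1.07. EdgeR 4.0.16 in R 4.3.3 fitted a quasi-likelihood model with 1 coefficient per group to all 16 libraries, and p-values were adjusted by Benjamini-Hochberg over the 13379 genes at a threshold of 0.05. The difference between genotypes is the stage contrast in LERKO minus that in controls. Standard errors are the size of the log2 fold change over the square root of F. Groups are mice labelled as separate individuals. Total counts ran from 18123974 to 23213905, and a count of 0 in a library allows up to 3 counts, counting error only.

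Alternatives were RLE factors, total counts alone, no filter, at least 1 CPM in 4 libraries, DESeq2 1.42.0, limma-voom (limma 3.58.1) with and without sample quality weights, a robust quasi-likelihood fit, the 8 LERKO libraries alone, other thresholds and leaving out single libraries or pairs. The fits were tested on simulated data. Gene identifiers were matched to GENCODE annotation of GRCm38 (35465 of 35502). Promoters came from RefSeq for GRCm38.p6, and a gene with no entry was left out of the motif shares.

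Named genes are Esr1, the 8 genes with the smallest p in each direction among genes averaging log2 CPM 0 or above, the 5 in each direction for the difference between genotypes, and from each list the 4 members with the smallest p and the 2 with the highest mean level. The groups compared and the gene lists were chosen with earlier results of these data known. Some genes that this rule names are not reported here.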

Additional observations from a re-analysis of the deposited data

Results flagged for a closer look

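In 184 groups of 4 libraries examined for the values the text gives, 25 held a library far from the other 3 by Dixon's test at 95%. For independent, normally distributed values chance alone does so in about 1 of 20 groups. The groups here share libraries, hold CPM that are not on a log scale and are in part of genes picked by small p. That rate therefore need not hold for them. Library 4 of Mat.LERKO accounted for 9 of these and library 4 of Imm.LERKO for 8. What set these libraries apart was not tested.

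Library 4 of Mat.LERKO held 19910 CPM of Saa2 (the other 3 of its group 13.5 to 49.5), 19031 CPM of Saa1 (25.5 to 94.4), 16079 CPM of Fgb (4136 to 5192) and 23319 CPM of the haem carrier Hpx (3087 to 3728). Its summed acute phase transcripts stood at 191469 CPM (40471 to 45168), its neutrophil markers at 101 CPM (2.45 to 6.85) and its cholangiocyte markers at 67.5 CPM (40.8 to 45.2). It was low in Atp5b, at 893 CPM (1085 to 1107), and in Cps1, at 3046 CPM (3960 to 4144).

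Library 4 of Imm.LERKO held 4024 CPM of Fasn (322 to 918 in the other 3 of its group), 25702 CPM of Scd1 (1889.7 to 4549), 8.13 CPM of Tnni2 (0.0920 to 0.167), 25.6 CPM of Ttn (0 to 0.138), 2.11 CPM of Hells (1.33 to 1.39) and 13.5 CPM of Polb (13.2 in each of the others). Its lipogenic genes summed to 45019 CPM (7257 to 12606) and its muscle markers to 233 CPM (10.7 to 19.4).

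Among the other libraries of Mat.LERKO, library 1 was high in Mup21, at 16.3 CPM (6.34 to 8), and in Pck1, at 2961 CPM (2222 to 2303). Library 2 was low in Polb, at 9.03 CPM (10.3 to 10.5), and in Scd1, at 1694 CPM (5799 to 6344). Library 3 was low in Csf1, at 12.5 CPM (17.1 to 18), and high in Arntl, at 16.3 CPM (0.914 to 3.29). In Imm.LERKO, library 2 was high in Hsd3b5, at 30.3 CPM (0.0920 to 1.95), and library 3 in Ndufs3, at 85.3 CPM (78.8 to 79.5).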

How the results depend on the processing

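No paired analysis was possible because the labels give the libraries no replicate numbers shared between groups. The count of genes between Mat.LERKO and Imm.LERKO was 0 in edgeR and 6 in DESeq2, and with single libraries left out 0 to 1. The 1 gene was Tgm1, without replicate 1 of Mat.LERKO (adjusted p = 0.0286, edgeR). For the difference between genotypes it was 0 in edgeR and 22 in DESeq2. Between Mat.Con and Imm.Con it was 0 in edgeR, 74 in DESeq2, 8 in limma-voom with quality weights, 33 without libraries 4 of both LERKO groups, and 1 without library 4 of Mat.LERKO and library 2 of Imm.LERKO (an alternative added with the data in view). The cause of these differences was not tested. Genes at an unadjusted p below 0.05 in the LERKO comparison numbered 316, with the 8 LERKO libraries fitted alone, to 965, without replicate 1 of Mat.LERKO. Among the scalings, total counts alone moved the median of all genes most, to -0.04 on the log2 scale.

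Over all alternatives, 30 of the 1359 log2 fold changes of named genes changed sign, in 15 of 68 genes, and 20 of these moved by less than 1 SD between replicates. Among the larger moves, Scd1 had 0.49 without library 4 of Imm.LERKO, Fasn 0.14 without libraries 4 of both LERKO groups and Arntl -0.20 without library 3 of Mat.LERKO. Saa2 and Saa1 turned in 3 settings each. Their log2 fold changes ran from -0.10 to 8.26 and from -0.075 to 7.16 with single libraries left out, and the lowest came without library 4 of Mat.LERKO. They were -0.24 and -0.17 without it and library 4 of Imm.LERKO, and -0.43 and -0.38 without it and library 2 of Imm.LERKO. Of the other log2 fold changes of named genes over all alternatives, 1331 kept their direction and side of the threshold or moved by less than that spread, some of them across 0, 17 moved further and 5 passed the threshold (Cxcl1, Socs3, Cyp2d9 and Tgm1 in DESeq2, and Tgm1 without replicate 1 of Mat.LERKO). Those that moved further were Fasn, Scd1, Fgb, Hpx, Arntl and Hsd3b5 with libraries left out, and Hsd3b5 and Hpx also in limma-voom. Of the list medians, 716 moved by less than that spread and 21 moved further, 16 of these with libraries left out.

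With 4 libraries a group, the 95% interval of the fold change lay within 1.5-fold for 59.3% of the genes and reached beyond it for the others.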
